A study of Mus musculus with 4 samples.

Results

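Small RNAs of 21 to 25 nt that came down with PIWIL1 from adult mouse testis were examined as distinct sequences with their read counts. An insert is the part of a read before the 3′ adapter, and identical inserts were summed. There were 194187 distinct inserts of 21 to 25 nt among 2517272 distinct inserts of any length. They held 185639 of 4722785 insert reads in replicate 1 and 172714 of 6322998 in replicate 2. The 2 libraries were immunoprecipitations of PIWIL1 from testes of wild-type C57BL/6J mice of 10 weeks, with the RNA size-selected on a gel before library preparation. The labels do not say whether the replicates came from separate animals, so the spread between them may be technical. The series also holds 1 RNA-seq library each of Piwil1-/- and Piwil1+/- testes at postnatal day 23, which carry no small RNA values and were not used. No control immunoprecipitation was analysed here, so the shares below say nothing of enrichment.

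PIWIL1, also called MIWI, is a PIWI-clade Argonaute protein of spermatocytes and round spermatids. It binds PIWI-interacting RNAs (piRNAs), which are cut from long single-stranded precursor transcripts, mostly begin with U, and are trimmed and methylated at the 3′ end to a length that fits the protein. MicroRNAs are shorter, are cut from hairpins by Drosha and Dicer, and are bound by the AGO proteins, with the bases from position 2 to position 8, the seed, pairing with target transcripts. The range of 21 to 25 nt covers the length of most microRNAs, and also that of any shortened piRNA. Pachytene piRNAs are usually defined by the longer range of 26 to 33 nt, which serves here as the comparison set.

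The 10 most abundant inserts of 21 to 25 nt are shown first. The 10 leading inserts of each library held 3.39% of its 21 to 25 nt reads in replicate 1 and 4.93% in replicate 2. Traits seen in these sequences therefore need not hold for the whole set. Each line gives the commonest insert of 26 to 33 nt that begins with the short one, 5′ to 3′ and with T for U as in the deposited table. The short insert is in lower case, and the bases by which the longer one continues are in capitals.
Insert 1, 21 nt: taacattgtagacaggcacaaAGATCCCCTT
Insert 2, 24 nt: ttgattatgaattctcatgagcatAGATGG
Insert 3, 23 nt: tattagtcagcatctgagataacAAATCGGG
Insert 4, 23 nt: tgatttggttgactctgttatggAGATGGT
Insert 5, 23 nt: tgattatgaattctcatgagcatAGATGG
Insert 6, 23 nt: tacactgtcgtgctcctgtacctAGTTCAC
Insert 7, 24 nt: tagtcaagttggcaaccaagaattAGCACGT
Insert 8, 21 nt: tatgagaattatgacagagctAGATGGTGT
Insert 9, 25 nt: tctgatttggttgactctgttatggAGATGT
Insert 10, 22 nt: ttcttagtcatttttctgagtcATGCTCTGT

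All 10 begin with U and are the first bases of longer, piRNA-sized inserts. In 8 of the 10 the longer form continues with AG, and in 6 of the 10 with AGAT. These are also the first letters of the 3′ adapter that follows a short insert in its read. Inserts 2 and 5 start 1 base apart and end at the same base. Inserts 9 and 4 likewise share their last bases.

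The set was a minor part of both libraries. Inserts of 21 to 25 nt made up 3.93% of insert reads in replicate 1 (exact Clopper-Pearson interval at 95% confidence, 3.91% to 3.95%) and 2.73% in replicate 2 (2.72% to 2.74%), a mean of 3.33% ± 0.848. Here and below ± is the SD over 2 libraries. Intervals cover counting error only, since PCR copies are not independent molecules. Inserts of 26 to 33 nt held 86.3% in replicate 1 and 93.9% in replicate 2. Replicate 1 also held more inserts under 15 nt, 4.19% against 0.456% in replicate 2, so the higher share of short RNAs in replicate 1 was not limited to 21 to 25 nt. The part that RNA quality or library preparation played in this was not tested.

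No length within the range stood far above its neighbours. In replicate 1, 21 nt was above 20 and 22 nt, at 0.773% against 0.728% and 0.737%. The same held in replicate 2, at 0.485% against 0.424% and 0.460%. Insert 1 alone held 1582 of 36508 reads of 21 nt in replicate 1 and 1692 of 30690 in replicate 2. The share of insert reads was 0.629% ± 0.203 at 21 nt, 0.598% ± 0.196 at 22 nt and 0.651% ± 0.166 at 23 nt. At 24 nt it was 0.687% ± 0.156, and at 25 nt 0.765% ± 0.127. In both libraries 22 nt was the lowest of the 5 lengths and 25 nt the highest. Just outside the range, 20 nt held 0.576% ± 0.214 and 26 nt held 1.03% ± 0.0620. Replicate 1 was above replicate 2 at every one of the 5 lengths, for example 0.773% against 0.485% at 21 nt and 0.855% against 0.675% at 25 nt. The 5 lengths held between 35172 distinct inserts at 21 nt and 45220 at 25 nt.

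Most members were rare. A single read supported 153043 of the 194187 inserts, or 78.8%, against 70.1% of the distinct inserts of 26 to 33 nt. Both libraries held 26658 members, or 13.7%, against 21.9% of the inserts of 26 to 33 nt. These shared members carried 45.2% of the 21 to 25 nt reads in replicate 1 and 50.6% in replicate 2, while shared inserts of 26 to 33 nt carried 82.8% and 82.3% of theirs. The longer range also held far more reads, 4077499 in replicate 1 and 5937125 in replicate 2, so these shares were not matched for depth. At the other extreme, the leading inserts held a larger share of reads than in the longer range. The longer range had 1954309 distinct inserts against 194187, so the same number of leading inserts is a smaller part of it. In each library the leading insert held 0.916% ± 0.0901 of the 21 to 25 nt reads, against 0.302% ± 0.0976 in the longer range. The 100 most abundant held 8.94% ± 2.04 of them, against 5.76% ± 0.341. Of 1023 members with 20 or more reads in total, 71.9% were within 2-fold of each other in the 2 libraries per insert reads, against 88.1% of 64206 such inserts of 26 to 33 nt.

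Most reads of 21 to 25 nt matched the first bases of a longer insert, and most of these matched the last bases of one as well. A member was placed in the start class where its whole sequence began at least 1 insert of 26 to 33 nt in either library, in the inside class where it lay elsewhere in one, and in the absent class otherwise. The start class took precedence where a member met both conditions. The start class held 71.4% of the 21 to 25 nt reads in replicate 1 and 73.5% in replicate 2, a mean of 72.4% ± 1.46. The inside class held 19.3% and 17.6%, a mean of 18.4% ± 1.21. The absent class held 9.31% and 8.95%, a mean of 9.13% ± 0.253. Of all 21 to 25 nt reads, 53.2% ± 1.42 were the first bases of one insert of 26 to 33 nt and the last bases of another, 19.2% ± 0.0434 were first bases only and 16.6% ± 1.03 last bases only. The order of the 3 classes was the same in both libraries, and the gaps between them were many times the spread between replicates.

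Counted as distinct sequences over both libraries pooled, 111788 members were in the start class (57.6%), 50712 in the inside class (26.1%) and 31687 in the absent class (16.3%). A single read supported 69.6% of the start inserts and 86.9% of the inside inserts. In the absent class it was 98.3%, and the most abundant insert there had 182 reads in all. The start class grew with length beyond 22 nt and the inside class shrank. By the class rule a longer member has fewer places in a host other than the first, and no expectation by length was computed. Start inserts made up 69.4% ± 2.10 of reads at 21 nt, 68.3% ± 1.27 at 22 nt, 72.3% ± 1.97 at 23 nt, 74.0% ± 0.810 at 24 nt and 76.9% ± 0.386 at 25 nt. Inside inserts made up 22.3% ± 1.71 at 21 nt, 22.8% ± 0.685 at 22 nt, 19.1% ± 1.31 at 23 nt, 16.4% ± 0.888 at 24 nt and 13.1% ± 0.384 at 25 nt.

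The classes depended on how many reads a longer insert needed. With only inserts of 26 to 33 nt seen 10 or more times as hosts, the start class held 50.4% ± 1.83 of reads. The inside class then held 26.02% in replicate 1 and 23.6% in replicate 2, and the absent class 24.9% and 24.7%, so the order of these classes turned between the libraries. With such hosts, 34.3% ± 0.845 of reads were first bases only, 16.1% ± 0.989 both first and last bases, and 21.1% ± 1.37 last bases only. Part of the start reads therefore counted as such only through longer inserts with fewer than 10 reads.

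The first base differed between the classes, which are themselves set by position in the longer inserts. A start insert takes the first base of a longer insert, and an inside insert a later one. U is the usual first base of piRNAs, and it opened 72.1% ± 2.33 of the 21 to 25 nt reads, against 90.1% ± 0.0924 of the reads of 26 to 33 nt. The difference within a library was -19.6 percentage points in replicate 1 and -16.4 in replicate 2. Start inserts began with U in 84.3% ± 1.21 of reads, absent inserts in 64.0% ± 1.97 and inside inserts in 27.97% ± 2.94. Inside inserts began with A in 37.5% ± 4.65 of reads. Most inside reads begin at bases 6 to 10 of their host. At those bases, inserts of 26 to 33 nt had A in 29.02% ± 0.161 and U in 32.7% ± 0.108. At their first base, inserts of 26 to 33 nt had A in 3.81% ± 0.0920. By length, U opened 69.1% ± 2.69 of reads at 21 nt, 66.7% ± 1.94 at 22 nt, 72.5% ± 2.40 at 23 nt, 74.0% ± 2.08 at 24 nt and 76.5% ± 1.56 at 25 nt. Reads of 15 to 20 nt lay lower, at 64.4% ± 2.75.

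Position 5 gave the same order of classes, again with start inserts read at base 5 of a longer insert and inside inserts further along. There, A made up 40.1% ± 0.389 of the 21 to 25 nt reads against 46.2% ± 0.0313 of the reads of 26 to 33 nt. Within the set it was 43.5% ± 0.573 in start inserts, 36.0% ± 0.643 in absent inserts and 28.8% ± 0.611 in inside inserts. G at position 5 was at 13.3% ± 0.121, against 8.56% ± 0.137 in the longer range. Inside inserts had 23.6% ± 0.0818 there, beside 22.0% ± 0.196 at base 10 and 23.9% ± 0.386 at base 11 of the longer range. At position 2, A was at 36.9% ± 0.618 against 41.2% ± 0.563. In the ping-pong cycle, a route of piRNA formation, cuts guided by one piRNA set the 5′ end of another, and piRNAs formed so carry A at position 10. Its share was 30.4% ± 0.418 in reads of 21 to 25 nt and 30.7% ± 0.205 in reads of 26 to 33 nt, a difference of -0.321 ± 0.212 percentage points. The classes differed here too. Start inserts had 31.5% ± 0.544, which is 0.821 ± 0.338 percentage points above the longer range. Absent inserts had 28.3% ± 0.663. Inside inserts, read further along the host, had 26.9% ± 0.147. The last base was U in 41.4% ± 0.484 of the 21 to 25 nt reads, against 47.8% ± 0.600, and A in 19.1% ± 1.02, against 12.6% ± 0.618.

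The base composition just past the 3′ end was uneven in the start class. For each start insert, the bases that follow in its commonest insert of 26 to 33 nt were read. As a comparison, all inserts of 26 to 33 nt were read at the same cut positions. The next base was A in 43.7% ± 2.21 of start reads, against 25.997% ± 0.181 at the same cuts. The next 2 bases were AG in 20.8% of start reads in replicate 1 and 26.5% in replicate 2, a mean of 23.7% ± 4.02, against 6.83% ± 0.0745. AGA followed 14.5% ± 2.63 against 2.20% ± 0.0290, and AGAT followed 10.3% ± 2.35 against 0.398% ± 0.00576. AGATC followed 3.54% ± 0.510 against 0.0577% ± 0.00154. The ratio between start reads and the same cuts thus grew with each further base that matched the adapter.

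This pattern was strongest among abundant members. Of the 10 most abundant start inserts 8 were followed by AG, of the top 100 there were 55, and of the top 500 there were 197. AGAT followed 36 of the top 100 and 103 of the top 500. With each distinct start insert counted once over both libraries pooled, AG followed 12.7% against 6.90% of distinct inserts of 26 to 33 nt at the same cuts, and AGAT followed 2.10% against 0.423%. All 5 lengths showed it. AGAT followed 15.5% ± 2.97 of start reads at 21 nt, 6.44% ± 1.57 at 22 nt, 13.2% ± 4.47 at 23 nt, 9.40% ± 2.23 at 24 nt and 7.76% ± 1.09 at 25 nt, while the same cuts gave between 0.337% and 0.468%. Single inserts weighed on these shares. At 21 nt, insert 1 held 1582 of the 3330 such reads in replicate 1 and 1692 of 3834 in replicate 2. By distinct start inserts the lengths differed little, from 2.02% at 25 nt to 2.18% at 21 nt.

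Shorter inserts showed the same feature. Inserts of 15 to 20 nt that start a longer one were followed by AG in 24.2% ± 4.30 of reads, against 6.33% ± 0.00816 at the same cuts. AGAT followed 10.7% ± 2.24 of them, against 0.440% ± 0.0119. Inserts of 26 to 28 nt that begin a longer insert of up to 33 nt were followed by AG in 14.1% ± 0.162, against 6.89% ± 0.0876. Start reads that were not followed by AG were also set beside the same cuts without those followed by AG. Their last base was U in 42.2% ± 1.04, against 30.4% ± 0.00392 at such cuts. The next base was C in 17.1% ± 0.533, against 24.8% ± 0.216, and A in 26.2% ± 0.987, against 20.6% ± 0.268. Shared letters between RNA and adapter move with the abundance of these short forms, and their part in it was not tested.

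The abundance of each member can be set beside that of its longer forms. Values are in RPM, reads scaled to a total of 1000000 insert reads. Insert 1 had 335 RPM in replicate 1 and 268 RPM in replicate 2, and all inserts of 26 to 33 nt with the same start had 274 and 331 RPM. The short form was thus the higher in replicate 1 and the lower in replicate 2. Insert 2 had 181 and 206 RPM, beside 216 ± 26.2 RPM for its longer forms. Insert 3 had 178 and 149 RPM, against only 63.2 ± 7.06 RPM of longer forms. It is 1 of the 2 among the top 10 whose longer form does not continue with AG.

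Insert 4 had 101 and 183 RPM, the widest gap between libraries among the top 5, and its longer forms varied the same way, with 230 RPM in replicate 1 and 430 RPM in replicate 2. Insert 5 had 124 and 142 RPM, above the 71.0 ± 6.33 RPM of its longer forms. Insert 6 had 84.1 and 113 RPM, and insert 7 had 106 and 72.1 RPM. For both of these the longer forms were far more abundant, at 2419 ± 275 RPM for insert 6 and 1416 ± 35.7 RPM for insert 7. Insert 8 had 69.7 and 72.6 RPM beside 125 ± 39.4 RPM of longer forms, insert 9 had 65.0 and 71.2 RPM beside 406 ± 78.7 RPM, and insert 10 had 87.2 and 47.1 RPM beside 492 ± 32.1 RPM. Inserts 1, 10, 3, 2 and 9 were the most abundant of 21, 22, 23, 24 and 25 nt in that order.

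Such high short shares were uncommon among the 5′ ends of these RNAs. A 5′ end was taken as the first 20 bases, and ends with 100 or more reads were kept, 6825 in replicate 1 and 9718 in replicate 2. The median share of an end's reads that were 21 to 25 nt long was 1.71% in replicate 1 and 0.983% in replicate 2, counted among reads of 21 to 25 and 26 to 33 nt. No short form was seen for 15.3% and 21.5% of the ends. A short share above 10% was found for 234 ends (3.43%) in replicate 1 and 193 ends (1.99%) in replicate 2. Of 6732 ends with 100 or more reads in both libraries, 106 were above 10% in both and 17 were above 50% in both.

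In the 17 ends dominated by short forms in both libraries, AG followed the commonest short insert of 13 of the 17, AGAT followed 11, and 15 of the 17 began with U. Since they were picked by their short reads, this is a description only. Only longer inserts with the same 5′ end were counted against the short ones. In 4 of the 17 the commonest short insert is also the last bases of a more abundant longer insert with another 5′ end, at 1181 ± 81.6, 208 ± 47.4, 193 ± 3.73 and 30.7 ± 3.31 RPM. The ends described next are not among these 4. That of tattgtttgaacctcaacaccac, of 23 nt, had 44.7 and 43.5 RPM of short inserts against 9.95 and 12.02 RPM of 26 to 33 nt. This insert continues with AGAT. The end of taaactgcagaatgaagagat, of 21 nt, had 28.2 ± 0.904 RPM of short inserts against 8.18 ± 4.09 RPM of longer ones, and also continues with AGAT. The end of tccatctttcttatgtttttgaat, of 24 nt, had 60.4 ± 26.8 RPM against 24.7 ± 8.51 RPM, and continues with GGCA.

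Members of the inside class mostly ran to the end of a longer insert. The 5 most abundant are shown within their commonest host, with the host's leading bases in lower case and the 21 to 25 nt insert in capitals.
Inside 1, 22 nt: gagcAGTGGCCTGTGTTTGACGATTT
Inside 2, 21 nt: ttgatggtaATTGGAAGAGCTTCTGGGTGT
Inside 3, 22 nt: tgagaattACTGTTTAAAACTTTTGTGAGA
Inside 4, 24 nt: tgagaAACAGTGTCTTTTCCTCTACAAGC
Inside 5, 22 nt: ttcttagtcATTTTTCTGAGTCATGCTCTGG

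None of these 5 begins with U, and each ends where its host ends. Inside 1 had 11.2 RPM in replicate 1 and 17.4 RPM in replicate 2, and its host was a single read at 0.0791 ± 0.112 RPM, so it was far more abundant than any longer insert that holds it. Inside 2 had 12.7 and 5.38 RPM, against 559 ± 186 RPM for its host. Inside 3 had 11.6 and 5.54 RPM, against 232 ± 4.11 RPM. Inside 4 had 7.41 and 8.86 RPM against 11.9 ± 5.38 RPM, and inside 5 had 6.78 and 6.64 RPM against 25.3 ± 1.72 RPM. No insert of 26 to 33 nt began with the first 20 bases of inside 1 to 4.

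Over the whole inside class, the commonest first position in the host was base 8, with 18.7% ± 0.244 of reads. Base 9 had 16.8% ± 0.206, base 7 had 15.2% ± 0.579, base 10 had 12.6% ± 1.03 and base 6 had 11.7% ± 0.907. For an insert that ends with its host, this position follows from the 2 lengths. Bases 6 to 10 together had 75.03% ± 0.490 of inside reads, against 82.6% ± 0.300 if inserts of the same lengths are laid at the end of all inserts of 26 to 33 nt. Bases 2 to 4 together had 11.4% ± 0.290 of inside reads, against 2.08% ± 0.113 by length alone. The base before the insert in its host was U in 38.7% ± 2.12, against 33.8% ± 0.0644 at the same positions of all inserts of 26 to 33 nt. It was G in 13.2% ± 0.222, against 19.1% ± 0.0823.

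The end shared with a longer insert was common to most of the set. Of inside reads, 90.1% ± 0.295 ended exactly where an insert of 26 to 33 nt ends, and 58.7% ± 0.420 did so with one that had 10 or more reads. Of start reads, 73.5% ± 0.475 were also the last bases of some insert of 26 to 33 nt, and 36.4% ± 0.176 of one with 10 or more reads. Inside reads that ended before the end of every host made up 1.83% ± 0.174 of all 21 to 25 nt reads. Where at least 2 host bases followed an inside insert, they were AG in 13.2% ± 0.899 of reads.

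One piRNA was seen as both a 5′ and a 3′ part. The insert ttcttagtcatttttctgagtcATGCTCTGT, of 31 nt, had 193 ± 3.73 RPM. Its first 22 bases are insert 10. Its last 22 bases, from base 10 to base 31, were seen as a separate insert with 47.6 RPM in replicate 1 and 32.3 RPM in replicate 2, shown here in capitals within the whole.
Last 22 bases: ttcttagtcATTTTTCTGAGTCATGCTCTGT
Inside 5 lies at the same place in a form of this piRNA with another last base. This 22 nt insert was in the start class only because of 3 longer reads. Of these, 2 were of a 31 nt insert in which the 9 leading bases stand at the end instead, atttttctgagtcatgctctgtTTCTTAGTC.

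Inserts absent from the longer ones were often changed at the last base. Of absent reads, 42.3% ± 3.04 were 1 base away from the start of an insert of 26 to 33 nt. In 44.1% ± 5.24 of these the changed base was the last one, against 3.91% ± 0.842 for the base before it. A further 23.2% ± 0.820 of absent reads shared 18 bases elsewhere with a longer insert, and 31.5% ± 1.78 shared none. U-to-C was the commonest last-base change, with 43.7% ± 8.74 of such reads, followed by C-to-U with 16.6% ± 2.99. U-to-G differed between libraries, at 13.04% in replicate 1 and 2.71% in replicate 2.

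The most abundant absent inserts are shown with the substitution that separates them from the nearest start of a longer insert, the base of the longer insert first and positions counted from 1 at the 5′ end.
Absent 1, T24C: ttgattatgaattctcatgagcac
Absent 2, T24C: tccatctttcttatgtttttgaac
Absent 3, none within 1 base: tccctggttaggattcggcgt
Absent 4, T21C: tgtttatctgtgaccgagtcc
Absent 5, C25T: tatctagattcaggatacactgact

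In 4 of the 5 the change is at the last base. Absent 1 is a changed form of insert 2, with 12.1 RPM in replicate 1 and 19.8 RPM in replicate 2. Absent 2 had 1.27 and 6.48 RPM, and absent 3 had 2.33 and 2.37 RPM. Absent 4 had 1.27 and 1.74 RPM and absent 5 had 1.06 and 1.74 RPM.

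Last-base changes were measured against parents of 100 or more reads, leaving out parents less abundant than a changed form of themselves. Of 34 members ending in U, the last base read otherwise in 9.94% ± 2.06 of the reads that matched up to it, and as C in 8.22% ± 2.69. At the base before the last, members with U there read otherwise in 0.386% ± 0.106. For 5530 inserts of 26 to 33 nt ending in U, the last base read otherwise in 14.7% ± 1.58, as C in 9.78% ± 2.65, against 0.535% ± 0.0931 at the base before. The raised level at the last base was therefore not particular to 21 to 25 nt. Its source was not tested.

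MicroRNAs were a small share of this microRNA-sized set. An insert was matched where it began at the 5′ end of a mature microRNA in RefSeq (build GRCm38.p6) and was that sequence, a shortened form of it, or an extended form held by its hairpin. Of 1679 distinct mature names, 31 were matched, by 52 inserts. They held 0.905% of the 21 to 25 nt reads in replicate 1 (exact interval 0.862% to 0.949%) and 1.05% in replicate 2 (1.01% to 1.10%), a mean of 0.979% ± 0.105. Of these reads 1667 and 1814 belonged to start inserts, 13 and 6 to absent inserts, and none to inside inserts.

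A single annotated entry accounted for most of them. Mature sequences of the leading entries are shown with the seed in capitals, in RNA letters.
miR-7210-5p: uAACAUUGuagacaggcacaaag
miR-468-5p: gACUGAUGuacugauaagaaacucagu
miR-7229-3p: uACACAGAccagugacuuucugca
miR-9-5p: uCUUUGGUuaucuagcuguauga

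No seed is shared among these 4. The mature miR-7210-5p of the Mir7210 hairpin lies at chr14:24088877-24088899 on the plus strand, and the most abundant insert of 21 to 25 nt is its shortened 21 nt form. Matching inserts had 1606 reads in replicate 1 and 1711 in replicate 2, which is 0.928% ± 0.0888 of the 21 to 25 nt reads. Without it, the other names held 74 and 109 reads, or 0.0515% ± 0.0164.

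The length profile of miR-7210-5p had 2 separate peaks. Inserts that share its first 18 bases had 309 ± 51.5 RPM at 21 nt, 138 ± 15.8 RPM at 30 nt, 133 ± 22.4 RPM at 31 nt and 22.9 ± 3.37 RPM at 32 nt. At the annotated mature length of 23 nt there were only 5 and 3 reads, or 0.767 ± 0.413 RPM. Inserts of 21 to 25 nt from this start had 340 RPM in replicate 1 and 271 RPM in replicate 2. Inserts of 26 to 33 nt from the same start had 276 RPM in replicate 1 and 333 RPM in replicate 2. As shown above, the longer form continues with AGATC after base 21.

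The next entry had the reverse balance. The mature miR-468-5p, of 27 nt, lies at chr6:81896629-81896655 on the minus strand. It had 40 and 91 reads of 21 to 25 nt, or 11.4 ± 4.19 RPM, against 1309 ± 89.9 RPM at 26 to 33 nt. The mature miR-7229-3p, at chr5:113324493-113324516 on the minus strand, had 4 and 2 reads, against 41.4 ± 10.4 RPM at 26 to 33 nt. The mature miR-7210-3p had 3 and 1 reads, against 28.1 ± 8.58 RPM. In all 3 of these entries the longer inserts outnumbered those of 21 to 25 nt in both libraries.

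Without miR-7210-5p and miR-468-5p, 34 and 18 reads were left for the 29 other names, or 0.0144% ± 0.00558 of the 21 to 25 nt reads. MicroRNAs found in most tissues, the let-7 family, miR-16, miR-17, miR-20a, miR-21a, miR-25, miR-26a, the miR-30 family, miR-92a, miR-103 and miR-191, had 15 reads in replicate 1 and 4 in replicate 2, from 11 of 51 mature names. Among them miR-26a-5p had 2 and 2 reads, miR-21a-5p 2 and 1, let-7f-5p 2 and 0, miR-191-5p 2 and 0, and miR-20a-5p 1 and 1. Outside this list miR-22-3p had 1 and 1 reads. The X-linked cluster expressed in testis had 1 and 2 reads, from miR-470-5p and miR-741-3p, 2 of 32 names.

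The germ cell list of miR-34b, miR-34c and miR-449, which rise in meiotic cells, had no match among its 7 mature names. For inserts that begin at a mature 5′ end, a count of 0 was given a limit of 3 reads. This is a share of 0.00162% in replicate 1 and 0.00174% in replicate 2. Other inserts of these hairpins are not covered by that limit. The Mir34c hairpin as a whole held 7 and 9 reads, or 1.45 ± 0.0416 RPM, and that of Mir34b 1 and 1. Names of red blood cells (3) and endothelium (1) had no read, and the Mir126a hairpin of endothelium held 0 and 1 reads. Of 2 brain names miR-9-5p had 3 and 2 reads, against 13.7 ± 0.749 RPM at 26 to 33 nt. Counts this small do not allow the libraries to be compared.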

How the data were processed

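Per the file headers, the deposited small RNA table gives the count of reads of each distinct sequence, all 50 nt long, in each replicate. The labels' protocols state that the RNA was gel-purified by size and that a NEBNext small RNA set was used for the libraries. Names of tools in the submitters' processing notes are Bowtie and STAR, and the build there is mm10, with settings not given in the sources used here. RPKM values of the authors were not used.

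Inserts were the bases before the first exact match to the first 10 nt of the adapter, found in 97.6% of 4836797 reads of replicate 1 and 98.7% of 6408274 reads of replicate 2. Adapter alone made up 0.409% and 0.0651%, and reads without a match, 1.95% and 1.27%, were left out. An error in the matched bases loses a read. A genomic stretch equal to those 10 nt would be trimmed as adapter.

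Shares were computed per library with Python 3.11.15, pandas 2.3.3, numpy 2.4.6 and scipy 1.17.1. They are given as mean ± SD, with no test, since 2 libraries are too few for any exact test to pass a threshold. The code for class assignment was run on simulated error-free reads, where all of 2600 inserts got their true class. Those inserts were made as exact first bases, exact last bases or random sequences. The run therefore checks the code and not how well real reads are classed. Inserts named were the 10 most abundant, the top of each length, the top 5 of each class, the 10 most abundant microRNAs and the microRNA lists. Ends dominated by short forms and the 22 nt last part of insert 10 were named after their values were seen. Members and lists were chosen with earlier results of these data known. No genome was used, so inserts were not placed. MicroRNA sequences and coordinates are those of RefSeq, GRCm38.p6. Alternatives covered the adapter match, the hosts, counting and the microRNA match.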

Additional observations from a re-analysis of the deposited data

How the results depend on the processing

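Of 78 values recomputed for 13 results with both libraries, 51 stayed within 1 SD and 27 moved. Of 26 values with 1 library left out, 7 moved. Where no host is involved, a value from 1 library lies within 1 SD of the mean of both by arithmetic and cannot move. Matching 8 or 12 adapter bases, or allowing 1 mismatch, moved none of the 13 results. The share of insert reads stayed between 3.33% and 3.42%, and the microRNA share between 0.978% and 1.05%. The start, inside and absent classes held 68.5%, 20.3% and 11.2% with hosts from the same library only, and 63.1%, 22.6% and 14.3% with hosts of 2 or more reads. With hosts of 10 or more reads they held 50.4%, 24.8% and 24.8%, with inside above absent in replicate 1 and below it in replicate 2. With 1 mismatch to the start allowed they held 81.3%, 13.4% and 5.27%. Counting each distinct insert once within each library gave means of 60.9%, 24.7% and 14.5%, and members of 2 or more reads gave 88.5%, 10.8% and 0.773%. With distinct inserts so counted, U at position 1 moved to 66.1% and AG after start inserts to 13.4%. Leaving out 1 library gave 66.5% to 70.4% for start, 19.2% to 21.5% for inside and 10.5% to 11.9% for absent, also because hosts then came from 1 library. It gave 2.73% to 3.93% for the share of insert reads, 0.905% to 1.05% for microRNAs, 70.4% to 73.7% for U at position 1 and 21.3% to 27.0% for AG. The values on following bases and on the positions and ends of inside inserts were added after the data were seen. No paired analysis was possible because the small RNA libraries form 1 group. Depth limits the rare members: most were seen once.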

Other observations

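A rearranged longer form, like the one described for the last 22 bases of insert 10, was seen for 148 start inserts with 699 reads in replicate 1 and 538 in replicate 2. In each, the commonest insert of 26 to 33 nt that begins with the short insert is a rotation of another insert with 10 or more reads, in which the same bases stand last. The 22 nt insert aaaaaatgtcctaagttagagc had 12.1 and 5.54 RPM and a single longer read of this kind, while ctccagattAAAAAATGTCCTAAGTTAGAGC, which holds it from base 10, had 841 ± 99.8 RPM. The 24 nt insert aatatttgtagaatgcatgaatgt had 5.93 and 3.95 RPM, also beside a single such read, while tcaataAATATTTGTAGAATGCATGAATGT, which holds it from base 7, had 320 ± 76.5 RPM. For 108 of the 148, with 355 and 241 reads, every longer insert that begins with them is such a rotation. The others also begin a longer insert of another kind.

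Several microRNA entries with members here lie close together. Mir468 and Mir7232 are both on the minus strand of chromosome 6, with mature sequences at chr6:81896629-81896655 and chr6:81895590-81895611. Mir7229 and Mir7230 are both on the minus strand of chromosome 5, at chr5:113324493-113324516 and chr5:113337623-113337645. Their hairpins held 93 and 183 reads of 21 to 25 nt for Mir468, 7 and 2 for Mir7232, 4 and 2 for Mir7229, and 7 and 4 for Mir7230.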
